A study of Mus musculus with 10 samples.

Results

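The genes described here were 7 members of the Ras association domain (RASSF) family, *Rassf1*, *Rassf2*, *Rassf3*, *Rassf4*, *Rassf5*, *Rassf7* and *Rassf8*, with the Mst kinases *Stk3* and *Stk4* and the scaffold gene *Sav1*. They were found by matching mouse gene identifiers to these symbols, which gave 10 genes of the 20206 in the table, each with 1 row. RNA was sequenced from 10 mouse embryonic stem cell (ESC) lines, and the question was whether diet of the mother before implantation left a difference in undifferentiated cells. All lines were wild-type C57BL/6, labelled male, and were derived on feeder layers from blastocysts of females mated at 7 to 9 weeks of age. Mothers of the LPD group (lines 1, 4, 6, 20 and 40) ate a low protein diet with 9% casein until embryonic day 3.5. Mothers of the NPD group (lines 8, 15, 21, 36 and 51) ate an isocaloric diet with 18% casein for the same time. Per the study's methods every line came from another mother and RNA was taken from cells in fibroblast-free culture, so each line is 1 replicate and a group of lines stands for a few mothers only.

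RASSF proteins carry a domain that binds small GTPases of the Ras type. Those encoded by *Rassf1* to *Rassf5* also hold a SARAH domain, through which they bind the Mst kinases, whereas the proteins of *Rassf7* and *Rassf8* have their Ras association domain at the amino terminus and no SARAH domain. Mst1 and Mst2, encoded by *Stk4* and *Stk3*, are the upstream kinases of the Hippo pathway: with the scaffold *Sav1* they activate the Lats kinases, which keep the transcriptional coactivators Yap1 and Taz out of the nucleus. *Rassf1* itself is best known as a tumour suppressor gene that is silenced by methylation of its CpG-rich promoter in many cancers.

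*Rassf1* lies on the plus strand of chromosome 9 at 107551555 to 107562267 (GRCm38), where 10 transcripts are annotated, 3 of them protein-coding. The coding transcripts Rassf1-202 and Rassf1-204 begin at 107551555 and 107551567, and Rassf1-201 begins at 107554583, which is 3028 bases after the start of Rassf1-202. The upstream start, here that of Rassf1-202, is known for the isoform Rassf1A, and the downstream start, of Rassf1-201, for Rassf1C. The 200 bases before each start are shown because the value analysed here is the total of the gene and cannot separate them. They are read 5′ to 3′ on the plus strand from the RefSeq promoter windows of GRCm38.p6, and capitals mark CG dinucleotides.
Upstream window, chr9:107551355-107551554: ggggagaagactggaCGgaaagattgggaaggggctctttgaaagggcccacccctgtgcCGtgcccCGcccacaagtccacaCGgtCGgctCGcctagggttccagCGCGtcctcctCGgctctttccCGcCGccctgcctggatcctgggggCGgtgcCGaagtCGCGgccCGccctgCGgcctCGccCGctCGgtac
Downstream window, chr9:107554383-107554582: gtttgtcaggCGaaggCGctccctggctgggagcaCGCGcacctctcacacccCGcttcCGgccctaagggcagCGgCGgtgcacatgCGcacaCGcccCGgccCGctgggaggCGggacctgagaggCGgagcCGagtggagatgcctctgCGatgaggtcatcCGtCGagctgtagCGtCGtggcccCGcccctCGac
The windows held 20 and 22 CG dinucleotides with a GC content of 70.5% and 71%. In the full windows of 300 bases both starts had 27 CG dinucleotides, a number that 15.5% of all 32851 RefSeq windows reached, against a median of 7. The hexamer GGGCGG, counted on both strands, occurred 4 times in the upstream and 1 time in the downstream window and in 35.7% of all windows. TGACTCA, the letters an AP-1 factor is known to bind, and GGAATG, those of a TEAD factor, were in neither window and in 5.20% and 14.7% of all windows. Promoter windows were matched for 7 of the 10 genes, and the CG count among them ran from 5 for *Rassf5* to 50 for *Sav1*, which 0.855% of all windows reached.

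The study designed a primer pair for quantitative PCR of the downstream transcript, shown here because it tells the transcripts apart where the table does not.
Forward: gaaatgacctggagcagcac
Reverse: ggtgtctcccgctctacag
Both primers matched Rassf1-201, with a product of 146 bases, and no other of the 10 *Rassf1* transcripts. The reverse primer alone lay also in the coding transcripts Rassf1-202 and Rassf1-204. No transcript of another gene held both.

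The authors' table gave 1 normalised value per gene and line, which is an estimated count after normalisation and not whole reads, and line totals ran from 16398672 to 18324979. Depth, estimated from what 1 read was worth in each line, was 20435570 to 23182045 read equivalents in the NPD lines and 21911886, 5842349, 12350304, 24076540 and 11251902 in LPD lines 1, 4, 6, 20 and 40. Against the label male, the Y-linked gene *Ddx3y* had a value of 7.70 in NPD line 15 and 174 in LPD line 4, and between 1110 and 1493 in the others. The 334 X-linked genes of NPD line 15 also had a median log2 deviation of 0.49 from their levels across all lines. Results were therefore computed with and without LPD line 4 and NPD line 15. All 10 pluripotency markers passed the minimum mean of 10, with summed values of 104872 to 136279 in LPD and 99300 to 135936 in NPD. Fibroblast markers, of which Fn1 made up most, summed to 13354 to 17823 and 12604 to 21112, and primitive endoderm markers to 3501 to 21789 and 2235 to 16137. By estimate, 7 of 8 tested fibroblast markers were lower and 9 of 9 primitive endoderm markers higher in LPD, 0 of them at an unadjusted p under 0.05 (limma), and none of either list was at 0 in every line. Trophectoderm markers summed to 3325 to 10977 in LPD and 3096 to 6513 in NPD, and haematopoietic markers to 128 to 253 and 166 to 211. The part of these markers in the results was not tested. In bulk RNA, fewer cells of a type and less RNA per cell cannot be told apart.

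In level, the 10 genes differed far more from each other than between the diets. Per kb of annotated exon, the mean over the 10 lines was highest for *Rassf3* (280.1 ± 32.1, SD), followed by *Stk4* (219 ± 18.8), *Rassf7* (168 ± 37.2) and *Sav1* (118 ± 15.4). *Stk3* (70.5 ± 9.83), *Rassf1* (66.9 ± 24.0) and *Rassf8* (43.9 ± 10.2) came next, and *Rassf5* (6.59 ± 1.72), *Rassf2* (6.04 ± 3.73) and *Rassf4* (2.30 ± 1.00) were lowest. *Rassf3* lay above *Stk4* and *Sav1* above *Stk3* in all 10 lines. *Stk3* exceeded *Rassf1* in all 5 NPD lines but in only 2 of the 5 LPD lines, so their order was not the same in the groups. The divisor counts every annotated exon base of a gene, 5845 for *Rassf1*, whose 3 coding transcripts have 1727, 1787 and 1783 bases. A shorter divisor would raise *Rassf1*, so its place in this order, also against *Stk3*, depends on the annotation. *Rassf5* exceeded *Rassf2* in 6 of the 10 lines, and this pair could not be ordered beyond the spread. *Stk4* was the more abundant Mst kinase transcript in every line, with an *Stk3* to *Stk4* ratio per kb of 0.326 on average and 0.242 to 0.463 over the lines. This ratio was 0.341 ± 0.0852 in LPD and 0.311 ± 0.0315 in NPD (exact permutation test, two-sided, n = 5, p = 0.516).

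**Figure D1:**
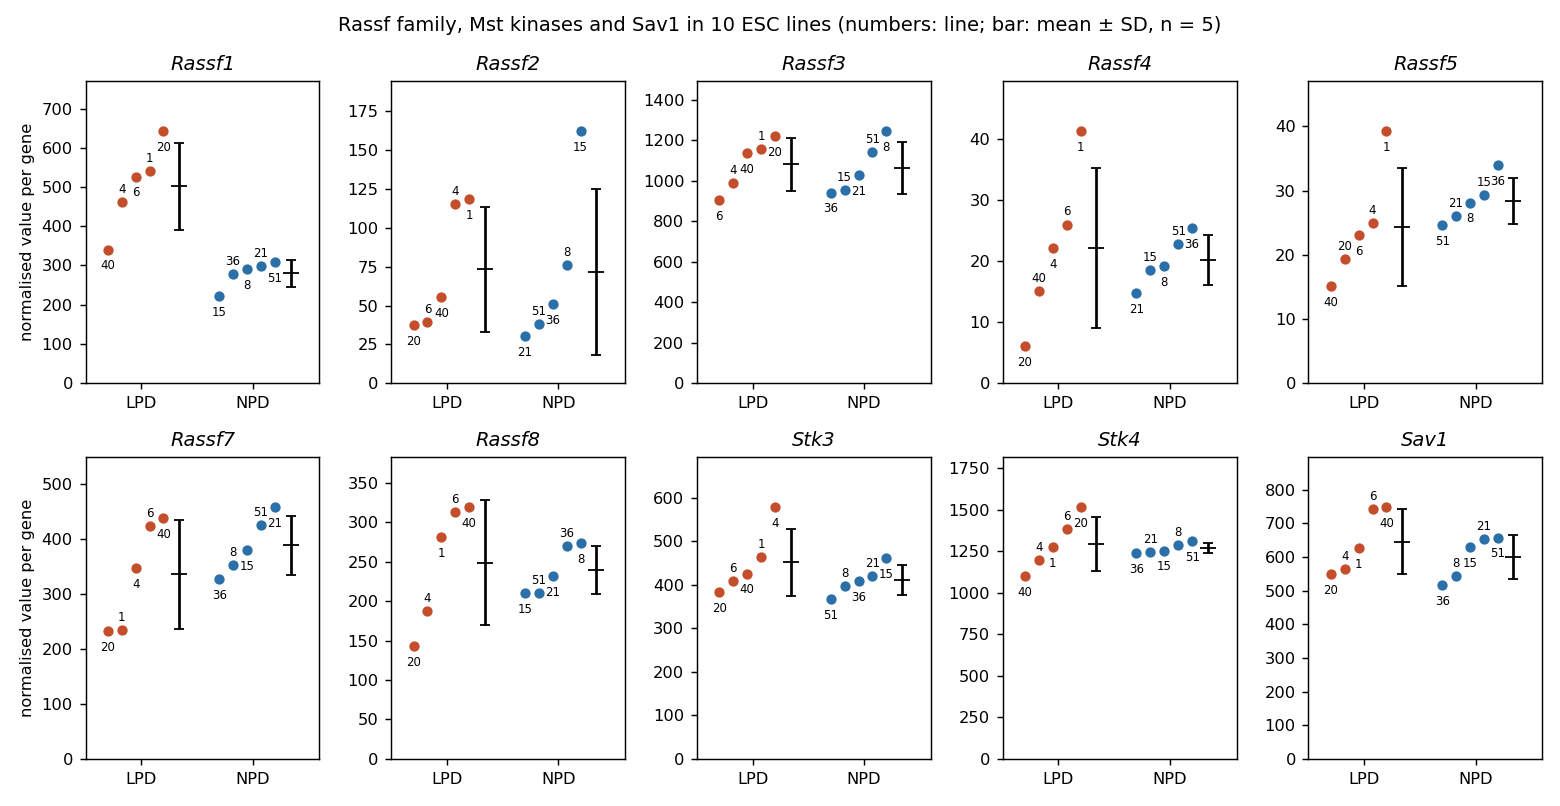
Normalised value per gene (vertical axis, from 0) of each of the 10 genes in the 5 LPD lines (red) and 5 NPD lines (blue), with the line number beside each point and the mean ± SD as a bar. For *Rassf1* the LPD lines lie between 341 and 642, all above the NPD lines at 222 to 309, and for every other gene the groups overlap.

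*Rassf1* was the gene of the group that separated the diets. Its normalised value was 541, 461, 527, 642 and 341 in LPD lines 1, 4, 6, 20 and 40. In NPD lines 8, 15, 21, 36 and 51 it was 291, 222, 299.8, 278 and 309. The groups did not overlap: every LPD line was above every NPD line, LPD line 20 was highest and NPD line 15 lowest, and LPD line 40 stood nearest to the NPD range. The means were 502 ± 111 (SD, n = 5) in LPD and 279.8 ± 34.2 in NPD, or 79.5% higher in LPD. On the log2(value + 1) scale the difference was 0.82 (SE 0.16), and its 95% interval of 0.46 to 1.18 corresponds to a fold of 1.38 to 2.26. The exact permutation test gave p = 0.00794 (two-sided), the smallest that 5 lines against 5 allow. In limma over all 14354 genes with a mean of at least 10 the unadjusted p was 2.76e-04, at rank 12, and the adjusted p was 0.317 (Benjamini-Hochberg), above the threshold of 0.1. Changes at least as high in LPD were seen in 1.04% of the genes tested. *Rassf1* is among the genes the study names from these same lines, so its direction here is not independent evidence. The study tested single transcripts, not gene totals, and there a *Rassf1* transcript was among the strongest, far below its false discovery rate of 0.1. It also reports the increase by quantitative PCR. The primers match only Rassf1-201 of the annotated transcripts, so the PCR too is not a measure of the gene total.

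The *Rassf1* difference kept its sign in each alternative run, but not always its side of the threshold. Leaving out each line in turn gave log2 fold changes of 0.72 to 0.95. With LPD line 40 left out the value was 0.95 with an adjusted p of 0.0230 (limma), and without LPD line 4 and NPD line 15 it was 0.76 with an adjusted p of 0.998. Over all alternatives the adjusted p ranged from 0.0230 to 0.998. Among the deep lines only, LPD lines 1 and 20 and all NPD lines, the log2 fold change was 1.08 (limma, adjusted p = 0.192). The LPD lines kept there were those with the highest *Rassf1* values. All shallower lines were LPD lines, so depth and diet cannot be fully told apart. LPD line 4 had 159.8 read equivalents on *Rassf1*, the fewest, and LPD line 20 had 843.

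Of the 10 genes, 0 passed an adjusted p of 0.1 (limma), where 0.0% of the 14354 genes did. At an unadjusted p under 0.05 (limma), 1 of the 10 passed, *Rassf1*, against 5.02% of all genes in either direction and 2.84% higher in LPD. The groups did not overlap in 1 of the 10, against 1.02% of all genes, or 0.523% with LPD above. By the signs of the estimates, 6 genes were higher and 4 lower in LPD, with a median log2 fold change of 0.024 against 0.0020 over all genes. An exact Mann-Whitney test placed 516 genes at an unadjusted p under 0.05, with p = 0.00794 and an adjusted p of 0.780 for *Rassf1*.

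**Figure D2:**
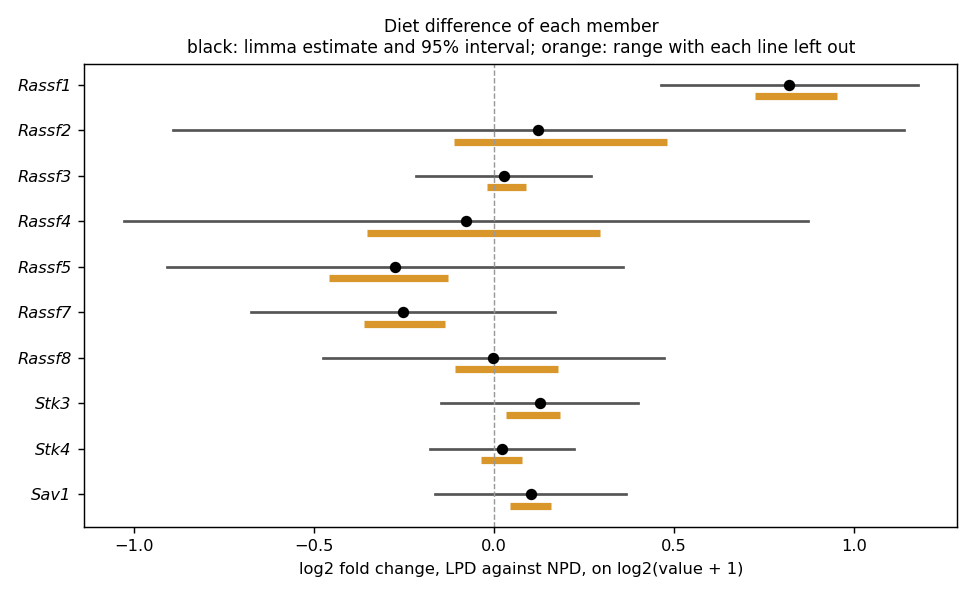
Log2 fold change of LPD against NPD on log2(value + 1) for each gene, as the limma estimate (point) with its 95% interval (black line), and below it the range with each line left out in turn (orange). The interval of *Rassf1* runs from 0.46 to 1.18, and the intervals of the other 9 genes include 0.

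Among the other RASSF genes with a SARAH domain, *Rassf3*, the most abundant per kb, had 1157, 988, 904, 1222 and 1136 in LPD lines 1, 4, 6, 20 and 40. In NPD lines 8, 15, 21, 36 and 51 it had 1244, 955, 1027, 942 and 1141. The ranges nearly coincided, and the log2 difference of 0.026 (SE 0.11) had a 95% interval of -0.22 to 0.27 (exact permutation test, p = 0.849). This interval excludes a change of the size estimated for *Rassf1*.

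*Rassf2* was the least even gene from line to line. It had 118, 115, 39.6, 37.6 and 55.5 in LPD lines 1, 4, 6, 20 and 40. It had 76.3, 162, 30.4, 50.7 and 38.2 in NPD lines 8, 15, 21, 36 and 51. High lines stood in both groups, LPD lines 1 and 4 and NPD line 15, and the standard deviation within diets was 0.87 on the log2 scale against a median of 0.27 over all genes. The difference was 0.12 (SE 0.47, 95% interval -0.89 to 1.14; exact permutation test, p = 0.825). It was 0.28 with LPD line 4 and NPD line 15, 2 of the 3 high lines, left out.

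*Rassf4* and *Rassf5* had the lowest normalised values. Per kb, *Rassf2* was low as well and could not be ordered against *Rassf5*. *Rassf4* had 41.3, 22.2, 26.0, 6.04 and 15.1 in the LPD lines, in the order above, and 19.2, 18.6, 14.8, 25.4 and 22.9 in the NPD lines. Its extremes, LPD lines 1 and 20, were both deeply sequenced, with 54.4 and 7.9 read equivalents on the gene, and the log2 difference was -0.078 (SE 0.44, 95% interval -1.03 to 0.87). *Rassf5*, whose product RAPL or Nore1 binds Rap1 and Ras, had 39.2, 24.9, 23.0, 19.4 and 15.1 in LPD and 28.1, 29.3, 26.0, 33.9 and 24.7 in NPD. Of the LPD lines 3 lay below every NPD line and LPD line 1 above them all. The difference of -0.28 (SE 0.29, 95% interval -0.91 to 0.36) was within the spread (exact permutation test, p = 0.286). Read equivalents were under 10 for *Rassf4* in LPD lines 4, 20 and 40 and for *Rassf5* in LPD lines 4 and 40. The interval of *Rassf4* includes a change of the size estimated for *Rassf1*, and in the deep lines only, the SE of *Rassf4* was 0.63, larger than with all lines.

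The N-terminal RASSF genes also overlapped between the diets. *Rassf7*, whose product is known from mitotic spindle formation, had 234, 348, 425, 233 and 439 in LPD lines 1, 4, 6, 20 and 40. It had 352, 380.3, 459, 328 and 425 in the NPD lines. LPD lines 1 and 20 lay below every NPD line and the other LPD lines within the NPD range, so the difference of -0.25 (SE 0.20, 95% interval -0.68 to 0.17) did not exceed the spread (exact permutation test, p = 0.286). These are the deep LPD lines: among the deep lines of both groups *Rassf7* was -0.72 (limma, adjusted p = 0.511), and with log2 depth as a covariate -0.51 (limma, adjusted p = 0.999). *Rassf8*, known from cell junctions, had 281, 188, 313, 143 and 319 in LPD and 274, 211, 232, 270.0 and 211 in NPD. LPD values stood on both sides of the NPD range, 3 above and 2 below all NPD lines, and the difference was -0.0026 (SE 0.22, 95% interval -0.48 to 0.47).

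For the kinases, *Stk4* (Mst1) had 1274, 1197, 1382, 1516 and 1101 in the LPD lines. In the NPD lines it had 1288, 1254, 1243, 1240.0 and 1309. The NPD lines lay within a narrow band (SD 30.4) and the LPD lines spread to both sides of it (SD 161), 2 above and 2 below. Its log2 difference was 0.022 (SE 0.093, 95% interval -0.18 to 0.22; exact permutation test, p = 0.802). *Stk3* (Mst2) had 463, 578, 408, 383 and 426 in LPD and 397, 461, 419, 409 and 366 in NPD. LPD line 4 was the highest of all lines, and the difference was 0.13 (SE 0.13, 95% interval -0.15 to 0.40; exact permutation test, p = 0.333). *Sav1*, the scaffold that joins Mst to Lats, had 626, 563, 743, 549 and 748 in LPD and 542, 629.6, 654, 515 and 658 in NPD. LPD lines 6 and 40 lay above every NPD line, and the difference was 0.10 (SE 0.12, 95% interval -0.16 to 0.37; exact permutation test, p = 0.429). None of these 3 intervals reached the lower bound of *Rassf1*.

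Some of the loci overlap other genes, and whether strand was used in counting is not given in the sources used here. *Rassf1* overlaps the antisense gene Gm9917, whereas *Rassf4* overlaps Depp1, *Rassf5* overlaps Eif2d, *Stk4* overlaps Tomm34 and *Sav1* overlaps Atl1, each on the opposite strand. Overlap here is between whole gene spans, and whether exons are shared was not examined. Reads from any exon shared across strands cannot be told apart without strand. *Rassf3* with Gm48591, annotated as sense intronic, *Rassf4* with Mir7043 and *Stk4* with Gm11455 overlap on the same strand. There, strand would not separate reads from any shared exon. None of the 10 genes had values identical to those of another gene.

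**Figure D3:**
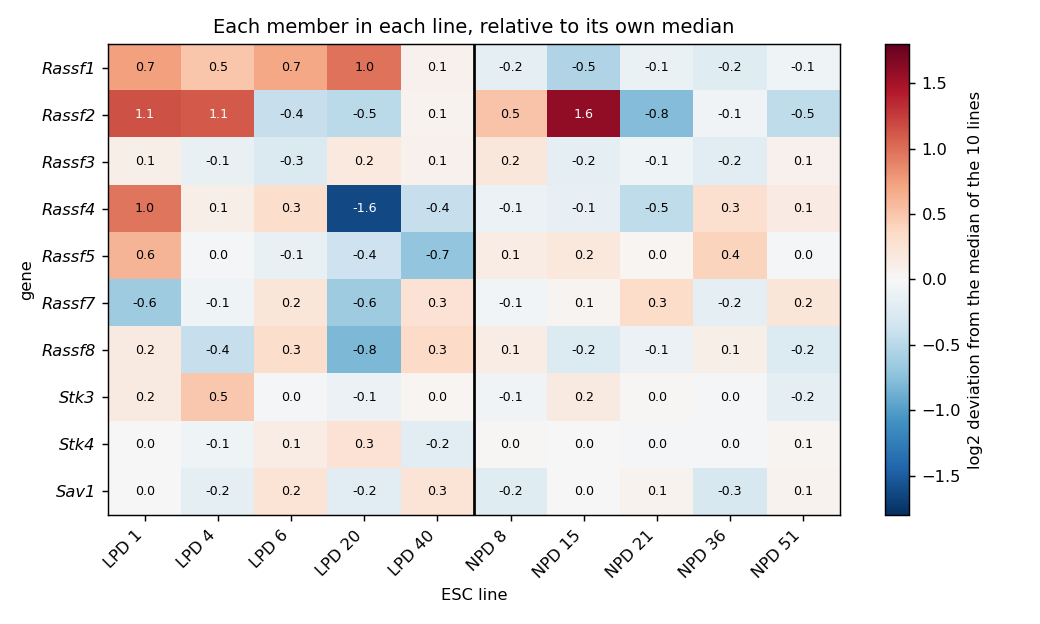
Log2 deviation of each gene (rows) in each ESC line (columns, LPD left of the vertical line) from the median of that gene over the 10 lines, red above and blue below. *Rassf1* is the only row above its median in all 5 LPD lines and below it in all 5 NPD lines. The deepest colours are those of *Rassf4* in LPD line 20 and of *Rassf2* in NPD line 15 and LPD lines 1 and 4.

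*Rassf1* took a larger share of the RASSF sum per kb in LPD lines. A difference in the sum itself was not seen beyond the spread. Share and sum rest on all annotated exon bases per gene, so they do not give proportions of transcripts. Summed per kb, the 7 RASSF genes reached 584 ± 28.1 (SD, n = 5) in LPD and 564 ± 43.6 in NPD (exact permutation test, p = 0.413). *Rassf1* itself was 85.9 ± 19.0 per kb in LPD and 47.9 ± 5.85 in NPD. Its share of the sum was 16.01%, 14.3%, 15.2%, 19.2% and 9.30% in LPD lines 1, 4, 6, 20 and 40. In the NPD lines it was 8.24%, 7.24%, 8.77%, 9.33% and 8.82%. LPD line 40 thus fell just under NPD line 36, and the other LPD lines lay above every NPD line. The mean share was 14.8% ± 3.59 against 8.48% ± 0.794 (exact permutation test, two-sided, unadjusted p = 0.0159, 1 of 10 such measures tested). *Rassf1* is itself the numerator, so this share restates the *Rassf1* difference and is not a separate result. *Rassf3* made up 48.8% of the sum on average, *Rassf7* 29.3% and *Rassf8* 7.64%. The next smallest p among the shares was that of *Rassf7*, 26.6% ± 7.20 in LPD and 32.0% ± 3.58 in NPD (exact permutation test, p = 0.183).

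**Figure D4:**
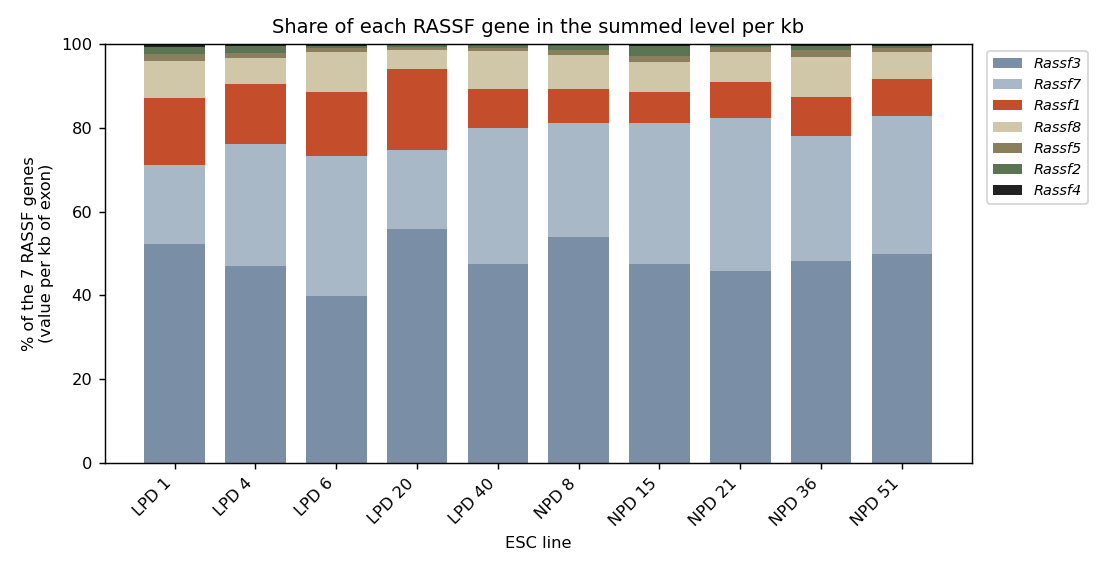
Share of each of the 7 RASSF genes in their summed value per kb of exon (vertical axis, percent) in each ESC line. The red segment, *Rassf1*, takes 9.30% to 19.2% in the LPD lines and 7.24% to 9.33% in the NPD lines, and *Rassf3* is the widest segment in all 10.

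Of the 45 pairs among the 10 genes, 0 passed an adjusted p of 0.1 over the 10 lines by Pearson's r or Spearman's rho on log2 values. At an unadjusted p under 0.05 (permutation test) there were 2 pairs by r and 3 by rho, 1 of them by both. *Rassf2* and *Stk3* had r = 0.703 (permutation p = 0.0151, adjusted p = 0.679) and rho = 0.673 (permutation p = 0.0393, adjusted p = 0.589), and r was 0.744 without LPD line 1 and NPD line 15. *Rassf4* and *Rassf5* had r = 0.663 (permutation p = 0.0422, adjusted p = 0.765) and rho = 0.467 (permutation p = 0.179, adjusted p = 0.913). Their r fell to 0.446 without LPD lines 1 and 20 and thus rests on them. By rho alone, *Rassf7* and *Sav1* had rho = 0.758 (permutation p = 0.0150, adjusted p = 0.589) with r = 0.571 (permutation p = 0.0867, adjusted p = 0.765), and r was 0.885 without LPD lines 1 and 20. *Stk3* and *Stk4* had rho = -0.697 (permutation p = 0.0304, adjusted p = 0.589) with r = -0.47 (permutation p = 0.175, adjusted p = 0.765), and r was -0.50 without LPD line 4 and NPD line 51.

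The genes whose pattern over the 10 lines was most like that of *Rassf1*, of 10454 with a mean of at least 100, were *Hexim1* (r = 0.947), an inhibitor of transcription elongation, *Nppb* (0.935), the natriuretic peptide BNP, *Maff* (0.927), a small Maf factor, *Bcl10* (0.926), an NF-kB adaptor, and *Golph3* (0.923), a Golgi protein. In each of them every LPD line was above every NPD line, which a choice by likeness to *Rassf1* favours. *Nppb*, *Maff* and *Bcl10* are, like *Rassf1*, among the genes whose transcripts the study lists from these same lines. Their likeness is thus not independent evidence. Sizes differed widely: *Nppb* was 426 ± 193 in LPD and 69.5 ± 17.4 in NPD, whereas *Hexim1* was 1537 ± 97.3 and 1361 ± 63.7. With values centred within diets the nearest were *Peli1* (r = 0.938), *Dpm1* (0.935), *Rnf4* (0.904), *Fam53c* (0.888) and *Ccdc28a* (0.887). The 2 sets of 5 shared no gene.

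Around these genes in the Hippo pathway, 54 of 55 listed genes were tested, and at an unadjusted p under 0.05 (limma) 2 were higher and 1 lower in LPD, against 2.84% and 2.18% of all genes. The study's integrated pathway analysis reports a Hippo signalling set as significant. That set and its test differ from those here, so the counts cannot be compared with it. No gene of any list passed an adjusted p of 0.1. Of all genes tested, 0.523% had every LPD line above every NPD line and 0.495% had every LPD line below. *Amotl2*, a scaffold that holds Yap1 in the cytoplasm and activates Lats, had 4268, 3905, 3019, 3606 and 1626 in LPD lines 1, 4, 6, 20 and 40. In the NPD lines it had 1600.4, 1475, 1123, 1418 and 1441. No LPD line was within the NPD range, and LPD line 40 was just above it. The means were 3285 ± 1034 and 1412 ± 176, with a log2 difference of 1.15 (SE 0.22; limma adjusted p = 0.290; exact permutation test, unadjusted p = 0.00794). It was 1.39 with LPD line 40 left out (limma, adjusted p = 5.72e-04), and over the alternatives its adjusted p ranged from 5.72e-04 to 0.999.

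*Wwtr1*, which encodes Taz, was 953, 931, 901, 972 and 895 in LPD and 887, 687, 766, 677 and 866 in NPD. The LPD lines again lay above every NPD line, by a small margin, with a log2 difference of 0.27 (SE 0.10; limma adjusted p = 0.860; exact permutation test, unadjusted p = 0.00794). *Yap1*, its paralogue, was 3934 ± 460 and 4037 ± 274, a difference of -0.043 (SE 0.093). The factor *Tead2* was 2573 ± 482 and 2732 ± 497, a difference of -0.087 (SE 0.16), and *Tead3* 136 ± 42.8 and 110 ± 21.5, a difference of 0.27 (SE 0.23). Of the 7 effector genes, 5 were higher by estimate and 1, *Wwtr1*, at an unadjusted p under 0.05 (limma).

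Among 16 other kinases and adaptors of the Hippo cascade, *Taok2*, a kinase that can activate Mst, was 1111, 1139, 1399, 1190.4 and 1263 in LPD and 1479, 1588, 1449, 1475 and 1552 in NPD. All 5 LPD lines were below all 5 NPD lines, with a log2 difference of -0.31 (SE 0.083; limma adjusted p = 0.551; exact permutation test, unadjusted p = 0.00794). The other 15 genes of that list did not pass at an unadjusted p under 0.05, among them the Mst substrate genes *Mob1a*, 1754 ± 184 and 1647 ± 126, and *Mob1b*, 509 ± 76.3 and 429 ± 64.3. *Map4k4* was 4745 ± 1048 and 5174 ± 749.9. The median log2 fold change of the list was 0.10.

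Of 18 upstream scaffold genes tested, *Amotl2* was the 1 that passed, and the median was 0.11. *Ajuba*, a LIM protein that inhibits Lats, was 4609 ± 1851 and 3374 ± 418, and *Csnk1d* 2930 ± 523 and 2435 ± 255. The lowest estimate of the list, -1.06, was that of *Dchs1*, named for its value, at means of only 8.11 and 15.5. In the STRIPAK phosphatase complex, which dephosphorylates Mst, 12 of 13 genes were higher by estimate and 0 passed. The median was 0.078, against 0.0020 over all genes. Signs of genes measured in the same lines are not independent, and this count was not tested. Of the complex, *Strn3* was 1179 ± 299 and 967 ± 57.2, *Fgfr1op2* 860.4 ± 105 and 753 ± 82.1 and *Ppp2r1a* 5878 ± 615 and 5783 ± 612. The Mst-related kinases *Stk24* and *Stk25* were 1156 ± 75.7 and 1194 ± 83.6, and 1284 ± 180.3 and 1330.1 ± 120.0, and 0 of the 3 genes of that group passed.

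The RASSF genes outside the 10 were low. *Rassf10* was 60.03 ± 12.3 and 64.2 ± 10.2, *Rassf6* 13.9 ± 10.2 and 16.6 ± 13.2, and *Rassf9* was under the minimum mean of 10. Of 15 genes tested from a list of Ras, Rap and related small GTPases, 1 was higher at an unadjusted p under 0.05 (limma). This was *Rras2*, with 1324 ± 158 and 1078 ± 203 and a log2 difference of 0.31 (SE 0.13; limma adjusted p = 0.972; exact permutation test, p = 0.0714). *Rap1b* was 2129 ± 132 and 1938 ± 76.4 (exact permutation test, unadjusted p = 0.0397; limma adjusted p = 0.994). *Rheb* was 1892 ± 206 and 1668 ± 115 (exact permutation test, unadjusted p = 0.0556; limma adjusted p = 0.994), and in both genes 4 of 5 LPD lines exceeded the highest NPD line. Of 16 genes for partners of RASSF1 and other RASSF proteins 0 passed, with a median of -0.025, among them *Moap1*, the partner in apoptosis, at 167 ± 30.8 and 185 ± 20.8, and *Ppp1r13b* at 152 ± 30.2 and 190.3 ± 25.3.

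On chromosome 9 the neighbours of *Rassf1* showed no difference beyond their spread. Of 14 genes within 100 kb, 12 were tested and 0 passed at an unadjusted p under 0.05 (limma), with a median log2 fold change of 0.068. *Gnai2* was 4065 ± 328 and 3842 ± 487, *Ifrd2* 1078 ± 78.8 and 1095 ± 147 and *Cacna2d2* 154 ± 18.0 and 189 ± 39.97. *Sema3b* had the highest estimate, 0.74 (SE 0.42), with 336 in LPD line 6 and 72.4 to 117 in the other LPD lines, against 39.0 to 145 in NPD.

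**Figure D5:**
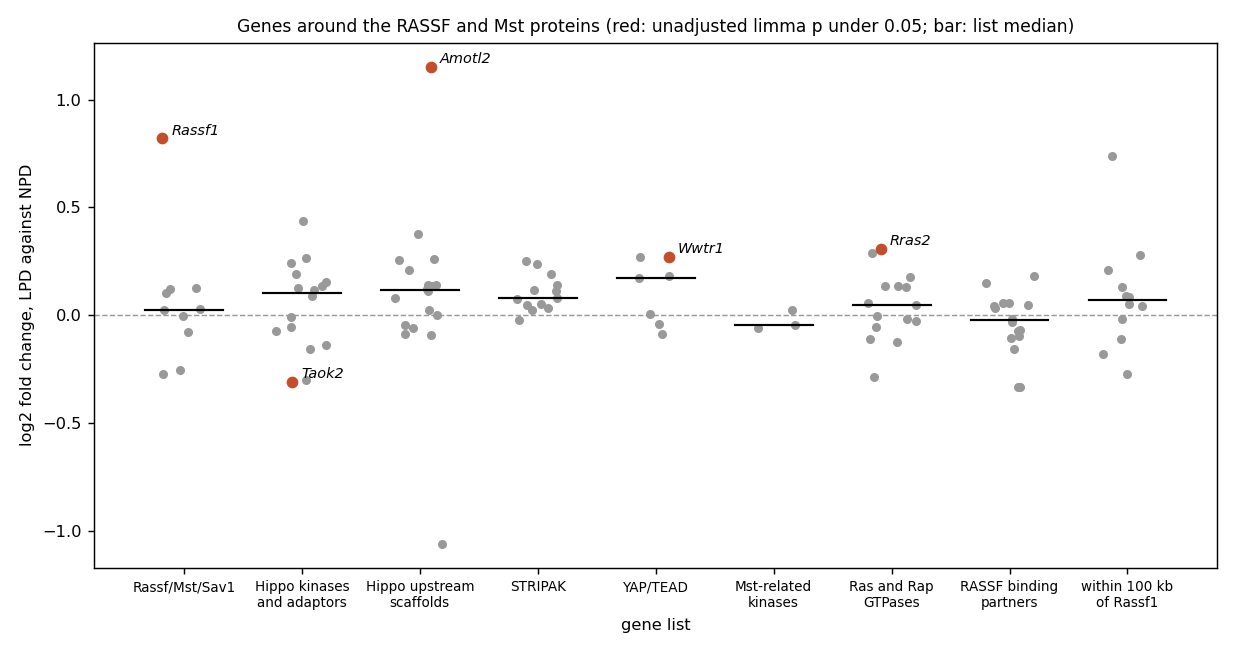
Log2 fold change of LPD against NPD (vertical axis) of every tested gene of the 10 and of 8 lists around them, 1 point per gene, with unadjusted limma p under 0.05 in red and the list median as a bar. *Amotl2* (1.15) and *Rassf1* (0.82) stand highest, *Wwtr1* (0.27) and *Rras2* (0.31) are the other red points above 0, and *Taok2* (-0.31) is the red point below.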

How the data were processed

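RNA was sequenced from 5 LPD and 5 NPD ESC lines, grouped by their titles, with each line 1 replicate (columns without a mapped line: 0). According to the study's methods and the submitters' processing notes, the authors trimmed adaptors with cutadapt, discarded reads of low quality, and quantified GRCm38 transcripts with Salmon before testing with Sleuth 0.30.0. The authors deposited a normalised signal per gene, whose name credits DESeq2. How transcripts were joined into genes is not given in the sources used here.

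Of 20206 genes, 19891 matched GENCODE M21 (GRCm38). Low values fell on whole reads, within 0.15 of a read, for 68.6% to 74.9% of them per line, so counts were not recovered and count models were not applied. Depth in read equivalents divides each total by the worth of 1 read, which limits low genes in LPD line 4 (2.88 per read) most.

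Values were taken as log2(value + 1). Genes with a mean of at least 10 (14354) were compared with limma 3.58.1 in R 4.3.3 (eBayes with trend, no covariate, Benjamini-Hochberg, threshold 0.1), and named genes by a two-sided exact permutation test over 252 assignments of lines. Correlations used 100000 resamples. The fit was tested on simulated data. Other steps ran in Python 3.11.15 (pandas 2.3.3, scipy 1.17.1, numpy 2.4.6, with figures from matplotlib 3.10.9).

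Named were all 10 genes and, from each list, at most 4 genes: those with the smallest p and those highest per kb. The genes, lists and tests were chosen with earlier results of these data known. Alternatives were pseudocounts of 0.1 and 10, no filter or a minimum mean of 100, quantile normalisation, equal totals per line, limma without trend, with robust eBayes or array weights, a principal component as covariate, an exact Mann-Whitney test and each line left out. Added after seeing the data were both lines with low *Ddx3y* left out, deep lines only (LPD lines 1 and 20 and all NPD lines), and log2 depth as a covariate.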

Additional observations from a re-analysis of the deposited data

Results flagged for a closer look

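Dixon's gap test was applied to each group of 5 lines, which singles out about 1 in 20 groups by chance. Of the 20 groups of the 10 RASSF, Mst and *Sav1* genes, 0 held a line far from the others. Of the 62 groups of the 31 genes named from the lists, 6 did. *Cdc20*, the activator of the anaphase-promoting complex that RASSF1A binds, was 9279 in LPD line 20 against 5511 to 5856 in the other LPD lines, and 7956 in NPD line 51 against 5368 to 6004 in the other NPD lines. *Sema3b*, a neighbour of *Rassf1*, was 336 in LPD line 6 against 72.4 to 117. *Mob1b* was 541 in NPD line 36 against 376 to 419, and *Ywhae* was 19319 in the same line against 17173 to 17685. *Ppp2cb* was 1647 in NPD line 51 against 1382 to 1431.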

How the results depend on the processing

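Of 23 alternative settings, 10 left out 1 line each. The count of all genes at an adjusted p under 0.1 (limma) was 0, and became 1 with array weights, 6 in the deep lines and 0 to 40 with each line left out, 40 without LPD line 40. That of the 10 genes was 0, and 0 to 1 with each line left out, the 1 being *Rassf1* without LPD line 40. Their count at an unadjusted p under 0.05 was 1, and 2 in the deep lines and with log2 depth as a covariate, where *Rassf7* joined *Rassf1*. The log2 fold change of *Rassf1* was 0.72 to 0.95 with each line left out and 0.76 to 1.08 otherwise, 0.99 with depth as a covariate (limma, adjusted p = 0.930). Only LPD lines were shallow, so this covariate is tied to diet.

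Signs turned in genes near 0. With each line left out the range was -0.11 to 0.48 for *Rassf2*, -0.0201 to 0.0884 for *Rassf3*, -0.35 to 0.29 for *Rassf4*, -0.11 to 0.18 for *Rassf8* and -0.0376 to 0.0776 for *Stk4*. With depth as a covariate *Rassf2* was -0.11 and *Stk3* -0.0126. Rescaled to the same total, *Rassf3* was -0.00812 and *Stk4* -0.0125. *Rassf4* was 0.0199 with array weights. *Rassf8* was 0.0047 with quantile normalisation and 0.0380 without LPD line 4 and NPD line 15, and *Sav1* was -0.0251 in the deep lines. The cause was not tested. *Rassf2*, *Rassf4* and *Rassf5* have no value at a mean of at least 100. *Amotl2* was 1.48 (limma, adjusted p = 0.0110) in the deep lines.

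Of the genes at an unadjusted p under 0.05, 56.6% were higher in LPD, against 40.2% rescaled to the same total and 46.2% without the filter. No paired analysis was possible because, per the study's methods, mothers were assigned to a diet at random and every line came from another mother. In LPD lines 4 and 40, *Rassf4* and *Rassf5* rest on under 10 read equivalents.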
